A study of Mus musculus with 8 samples.

Results

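The distal end of mouse chromosome 9, from 110 Mb to the last probe of the chromosome, was examined in the prefrontal cortex of α-Gal A(-/0) mice, the mouse model of Fabry disease, and of wildtype mice. Members were all non-control microarray probes whose listed start lay on chromosome 9 at or beyond 110 Mb in the mm9 build, except those named Itga9, Cx3cr1 or Ccr followed by a digit, and 369 of 55681 probe positions and 229 of 34650 gene names are described. The window was chosen on differences between the genotypes measured in these same arrays, so counts of differing probes in it describe the choice, and no test was made of them. The α-Gal A(-/0) group held 4 male mice that lack α-galactosidase A, the lysosomal enzyme encoded by Gla on the X chromosome, and the wildtype group held 4 male C57BL/6J mice. All were 20 to 24 weeks old, and no treatment is named for either group. The α-Gal A(-/0) line, on a C57BL/6 background, and the wildtype mice were inbred and no littermate controls are named, so genotype and breeding line cannot be told apart. Each mouse contributed 1 one-color array, and all 8 arrays were on 1 slide.

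This stretch of mouse chromosome 9 corresponds to part of the short arm of human chromosome 3 and carries genes of unrelated kinds side by side. Among them are sodium channel genes, the TGF-β type II receptor, chromatin genes, β-galactosidase of the lysosome, the neuropeptide cholecystokinin and the myelin gene Mobp. In Fabry disease, missing α-galactosidase A activity leaves globotriaosylceramide and related glycolipids in lysosomes. A microarray probe reports only the transcripts that contain its short target sequence, so different probes of a gene can report different isoforms.

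The following sequences are those of 7 of the 10 probes past the study's criterion, defined below, and of the other tested probe of Trank1, Fbxl2 and Zcwpw2, shown because only 1 probe of each of these genes met it. The 3 criterion probes of ENSMUST00000111769 and of 2 intergenic intervals are not shown. The first 30 of each probe's 60 bases are given 5′ to 3′ in lower case as deposited, with the mm9 positions listed for the whole probe. For Gm4657 the listed positions span fewer than 60 bases. Trank1, Fbxl2 and Zcwpw2 have 2 tested probes each, numbered by position.
2210411A11Rik, forward strand, chr9:115142756-115142815: ctggacaaaaagaacaaattcctagaaaca
Osbpl10, forward strand, chr9:115141263-115141322: aagacacactgatgggcggaggtgcagtgc
Gadl1, forward strand, chr9:115985235-115985294: ctaagaccgatgctagaaataagttggatt
Gm4657, reverse strand, chr9:113083607-113083664: aatcattgcatcagatgtgggggagtagtt
Trank1 probe 1, forward strand, chr9:111268071-111268130: tataaagaagaaaataatccttgccatcca
Trank1 probe 2, forward strand, chr9:111297703-111297762: cttggctattgtgtagatgataggagaagc
Fbxl2 probe 1, reverse strand, chr9:113872785-113872844: gccagttttatctgttttgtccatttttta
Fbxl2 probe 2, reverse strand, chr9:113886114-113886173: cctgtaagtactttcaccccacttctaaaa
Zcwpw2 probe 1, reverse strand, chr9:117907946-117908005: aatgttgaaaagtattacgtagaatttctg
Zcwpw2 probe 2, reverse strand, chr9:117921939-117921998: caattcaagatgctggagcatagaactctg
None of these probes shared a run of 20 bases with any other of the 55681 probes on the array.

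Signal was analysed as log2 of the scanner's processed intensity after quantile normalization over the 8 arrays, and a log2 fold change is the α-Gal A(-/0) mean minus the wildtype mean. A probe was tested where every array of either genotype (4 of 4) read it well above background, which held for 248 of the 369 members (67.2%) and for 61.7% of all probes. Of the tested members, 216 were well above background on all 8 arrays and none was saturated. Between 29943 and 36139 probes were well above background on the α-Gal A(-/0) arrays, against 35648 to 38240 on the wildtype arrays (exact permutation test over 70 relabelings, two-sided p = 0.171). The lowest number came from α-Gal A(-/0) mouse 2. The SD of an array's deviations from its group mean over probes was 0.20 to 0.38 on the α-Gal A(-/0) arrays, highest for mouse 2, against 0.16 to 0.19 on the wildtype arrays, with no overlap (exact permutation test over 70 relabelings, two-sided p = 0.0286). The probe named Gla had a log2 fold change of 0.06 ± 0.06 (SE), and the sources used here do not place it relative to the disrupted part of the gene, so it checks nothing about the labels. All 5 excitatory neuron, 5 inhibitory neuron, 5 astrocyte and 5 microglia markers were well above background on every array. The summed linear signal of the microglia markers was 26342 to 27785 in α-Gal A(-/0) mice, against 33614 to 38433 in wildtype mice (limma, 1 of 5 called, 4 with an unadjusted p under 0.05), and that of the astrocyte markers was 30585 to 34326 in α-Gal A(-/0) mice, against 35052 to 36543 in wildtype mice (0 of 5 called, 2 with an unadjusted p under 0.05). For the excitatory neuron markers the sum was 30121 to 33811 in α-Gal A(-/0) mice, against 33683 to 38523 in wildtype mice. For the inhibitory neuron markers it was 89444 to 95834 in α-Gal A(-/0) mice, against 87537 to 94218 in wildtype mice. In both of these lists 0 of 5 markers were called or had an unadjusted p under 0.05. The part of these cell types in the results was not tested.

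Across the distal end, 1 of the 248 tested members passed the adjusted threshold (limma, Benjamini-Hochberg adjusted p under 0.05), against 0.877% of the 34339 probes tested on the array. It was the probe of 2210411A11Rik, at 115.14 Mb, which was lower in α-Gal A(-/0) mice, where 0.571% of all tested probes were called lower. The criterion named in the study's methods, unadjusted significance at the 0.01 level together with a 1.2-fold difference or more (here from limma), was met by 10 members, or 4.03% of those tested, beside 3.43% of all tested probes. With the Welch test of the methods in place of limma, the same 10 members met it, beside 1.79% of all tested probes. Of the 10, 3 were higher (1.15% over the array) and 7 were lower (2.28% over the array) in α-Gal A(-/0) mice. The genotypes did not overlap at 23 tested members (9.27%, beside 7.94% over the array), with the α-Gal A(-/0) mice on top at 11 and beneath at 12. An unadjusted p under 0.05 was found at 34 members (13.7%, beside 11.9%). The median log2 fold change was close to 0 among the members and -0.02 over all tested probes, and only 2 members, Scn10a and AU023762, differed by 2-fold or more.

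The first member past the criterion was Trank1 at 111.30 Mb and the last was an intergenic transcript probe at 118.31 Mb, a span of 7.02 Mb. These 2 probes bound 83 tested members, so the absence of criterion probes among the 40 before them and the 125 after them, over 5.53 Mb, follows from how the limits were set. An unadjusted p under 0.05 was found at 2 of the 40, 18 of the 83 and 14 of the 125 (11.2%), beside 11.9% over the array. The genotypes did not overlap at 2, 13 and 8 (6.4%), beside 7.94% over the array. All 10 criterion probes are among both the 18 and the 13, so the higher counts between the limits also follow in part from how these were set. In bins of 1 Mb, 5 of the 14 bins that hold members contained a criterion probe: those of Trank1, of Gm4657 and Fbxl2, of Osbpl10, 2210411A11Rik and Gadl1, of ENSMUST00000111769 and Zcwpw2, and of the 2 intergenic intervals. The densest were 117 Mb, with 2 of 6 tested probes, and 115 Mb, with 3 of 10, while the bin of 110 Mb had 0 of 34 and that of 121 Mb had 0 of 40. The limits depend on the fit and on the probes left out by name. Beyond 118.31 Mb, the probe of Itga9, the integrin α9 gene, was called (-1.05 ± 0.15 SE, limma adjusted p = 0.020) and 1 of 3 probes of Cx3cr1, the fractalkine receptor gene of microglia, met the criterion (-0.29 ± 0.07 SE, limma adjusted p = 0.18). In 12 of 18 alternative settings at least 1 member beyond 118.31 Mb met the criterion, at most 7, and in 2 of them a member before 111.30 Mb did. The 7 came with array weights, where 4.92% of all tested probes met it.

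Just outside the 110 Mb boundary lay Dhx30, an RNA helicase gene, whose 2 probes had log2 fold changes of -0.01 and 0.09, Map4, a microtubule-associated protein gene, with -0.05, and an unnamed probe, A_55_P2058657, with -0.11. Just inside lay Gm10615 with -0.03, Smarcc1, a subunit gene of the SWI/SNF chromatin remodeler, with -0.09 to 0.59 at 4 probes, and the transcript AK133106 with 0.00 and 0.01. The nearest criterion probes before the boundary were 2 probes of Nme6, a nucleoside diphosphate kinase gene, at 109.74 Mb, with log2 fold changes of 0.61 and 0.50, and the other tested Nme6 probe had -0.55. The last tested genes of the chromosome were Fyco1, an autophagosome transport gene, with 0.00, Cxcr6, a chemokine receptor gene, with -0.03 and -0.33, and a probe named Kri1, with -0.17. From 100 to 110 Mb, 18 of 204 tested probes (8.82%) met the criterion and 12 of these 18 were lower. In the 4 bins of 1 Mb before the boundary, 7 of 42, 5 of 40, 2 of 47 and 2 of 15 tested probes met it, in order of position, and the median absolute log2 fold change was 0.06 in the bin of 110 Mb and 0.12 in the bin before it.

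**Figure D1:**
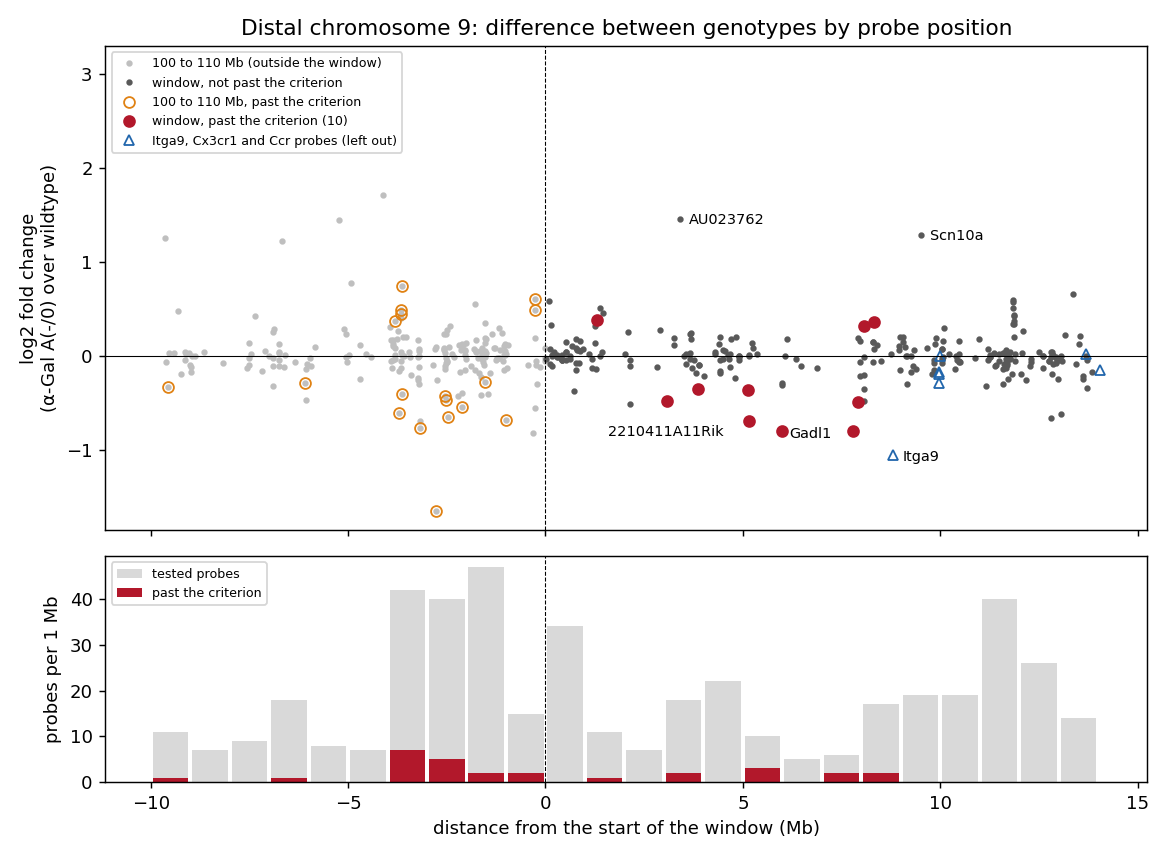
Upper panel, log2 fold change (α-Gal A(-/0) over wildtype) of each tested probe against its distance in Mb from the start of the window (dashed line), with criterion probes in red inside and as orange circles before the window, and probes left out by name as triangles. Lower panel, tested probes (grey) and criterion probes (red) in each 1 Mb bin. The 10 red points lie between 1.30 and 8.31 Mb, and the triangle of Itga9 at -1.05 lies beyond them.

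The called probe, 2210411A11Rik, and its neighbor Osbpl10 were both lower in α-Gal A(-/0) mice. 2210411A11Rik, an uncharacterized transcript, had log2 signals of 7.003, 7.11, 7.20 and 7.29 in α-Gal A(-/0) mice, against 7.99, 7.62, 7.73 and 8.03 in wildtype mice. The groups did not overlap, and the log2 fold change was -0.69 ± 0.11 (SE, limma adjusted p = 0.031), a 1.61-fold lower signal. Osbpl10 encodes an oxysterol-binding protein-related lipid transfer protein, and its probe ends 1433 bases before that of 2210411A11Rik on the same strand. It had 9.88, 9.93, 9.87 and 10.01 in α-Gal A(-/0) mice, against 10.48, 10.22, 10.17 and 10.24 in wildtype mice, and again no values overlapped. Its log2 fold change was -0.35 ± 0.08 (SE, limma adjusted p = 0.13), short of the adjusted threshold. The next gene, Stt3b, which encodes a catalytic subunit of the oligosaccharyltransferase, had 0.02 and 0.00 at its 2 probes. The call of 2210411A11Rik was lost in 7 of 8 fits that left out 1 array, all but the one without wildtype mouse 2 (limma adjusted p of 0.051 to 0.10), with log2 fold changes of -0.77 to -0.63.

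Gadl1, ENSMUST00000111769, Gm4657, Fbxl2 and Zcwpw2 were the other members past the criterion with lower signal in α-Gal A(-/0) mice, and none passed the adjusted threshold. Gadl1 encodes a decarboxylase that makes β-alanine in mice. Its only tested probe had 6.11, 5.74, 5.73 and 5.57 in α-Gal A(-/0) mice, against 6.93, 6.47, 6.40 and 6.53 in wildtype mice. The log2 fold change was -0.80 ± 0.15 (SE, limma adjusted p = 0.063), and its other 2 probes were well above background on no array. The transcript ENSMUST00000111769 had 5.73, 6.10, 6.16 and 6.15 in α-Gal A(-/0) mice, against 7.25, 6.51, 6.93 and 6.62 in wildtype mice. Its log2 fold change was -0.79 ± 0.17 (SE, limma adjusted p = 0.11), and wildtype mouse 1 was the highest. The predicted gene Gm4657 had 7.58, 7.27, 7.42 and 7.39 in α-Gal A(-/0) mice, against 7.97, 8.03, 7.79 and 7.78 in wildtype mice. Its log2 fold change was -0.48 ± 0.09 (SE, limma adjusted p = 0.064).

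Higher signal in α-Gal A(-/0) mice past the criterion was found for Trank1, described with its other probe below, and for 2 intergenic intervals. The interval of chr9:118060025-118085050 on the forward strand had 7.42, 7.19, 7.40 and 7.39 at its only tested probe in α-Gal A(-/0) mice, against 7.01, 6.90, 7.12 and 7.09 in wildtype mice. Its log2 fold change was 0.32 ± 0.08 (SE, limma adjusted p = 0.15). The overlapping interval chr9:118059348-118079494, on the same strand, had log2 fold changes of -0.48 to -0.20 at its 3 probes, none past the criterion. The last interval, chr9:118291593-118324230 forward, had 10.73, 10.82, 10.94 and 10.87 at its brighter probe in α-Gal A(-/0) mice, against 10.30, 10.59, 10.48 and 10.55 in wildtype mice. The log2 fold change was 0.36 ± 0.08 there (SE, limma adjusted p = 0.11), 0.07 at the other tested forward probe, and -0.06 to 0.16 at 3 reverse-strand probes of the same interval.

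At all 10 criterion probes the genotypes did not overlap, and each kept its direction within both rows of the slide, although row 1 held only 1 α-Gal A(-/0) array and row 2 only 1 wildtype array. Neither adds support, because the criterion was applied to the same values. Groups that do not overlap also keep their direction in either row. Without α-Gal A(-/0) mouse 2, all 10 met the criterion again, and 13 members met it in all. They were spread over both strands, 6 forward and 4 reverse. By the kind of transcript, 3 of 158 tested RefSeq mRNA probes met the criterion (1.90%, beside 3.22% over the array), as did 2 of 39 intergenic interval probes (5.13%, beside 3.83%), 0 of 13 probes of other RefSeq transcripts (4.19% over the array) and 5 of 38 probes of further transcripts (13.2%, beside 3.47%).

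**Figure D2:**
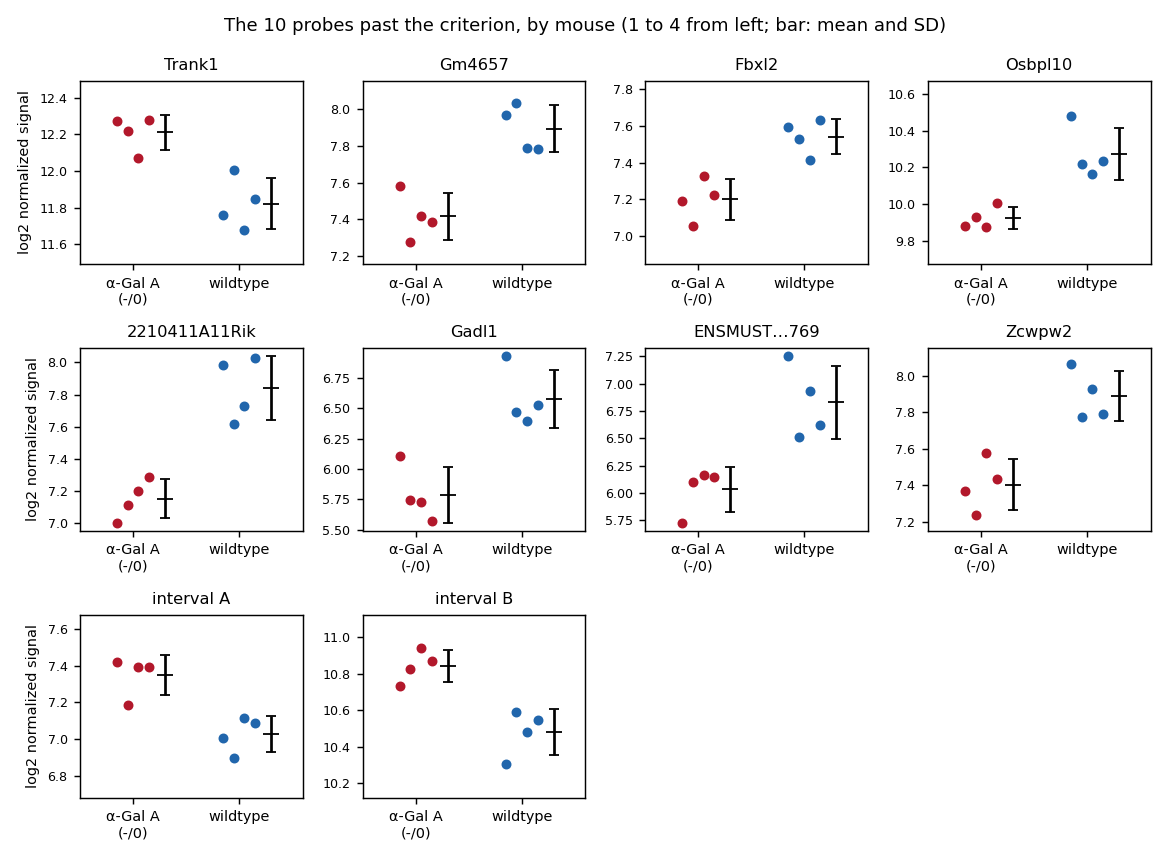
Log2 normalized signal of the 10 criterion probes in position order, with 1 point per mouse (mice 1 to 4 from left) and the mean with SD beside them, α-Gal A(-/0) in red and wildtype in blue. Interval A is chr9:118060025-118085050 and interval B is chr9:118291593-118324230, both forward strand. No panel has overlapping groups.

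Different probes of the same gene could differ. Of 54 gene names or intervals with several tested probes, 4 had a criterion probe beside one that was not. Most log2 fold changes lay near 0, and 30 of the 54 names (55.6%) had probes of opposite sign, beside 43.9% of the 7084 such names on the array. The median range within a name was 0.12 among the members and 0.13 over the array, and 6 member names had a range over 0.5. Trank1, which encodes a large protein of tetratricopeptide and ankyrin repeats, had 12.28, 12.22, 12.07 and 12.28 at probe 2 in α-Gal A(-/0) mice, against 11.76, 12.004, 11.68 and 11.85 in wildtype mice (0.39 ± 0.09 SE, limma adjusted p = 0.11). At probe 1 the genotypes overlapped and the log2 fold change was -0.13 ± 0.17 (SE). Fbxl2, an F-box substrate receptor gene of ubiquitin ligases, had 7.19, 7.05, 7.33 and 7.22 at probe 1 in α-Gal A(-/0) mice, against 7.59, 7.53, 7.41 and 7.63 in wildtype mice (-0.34 ± 0.08 SE, limma adjusted p = 0.13). Its probe 2 overlapped between genotypes, with -0.09.

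Zcwpw2, which encodes a protein with CW zinc finger and PWWP domains, differed in direction between its probes. Probe 2 had 7.37, 7.24, 7.57 and 7.43 in α-Gal A(-/0) mice, against 8.06, 7.78, 7.93 and 7.79 in wildtype mice (-0.48 ± 0.09 SE, limma adjusted p = 0.076). Probe 1 had 0.20 with overlapping groups. The widest range was that of Arpp21, which encodes a cAMP-regulated phosphoprotein abundant in the striatum. Its 3 probes, at 112.02, 112.08 and 112.14 Mb, had log2 fold changes of 0.02, 0.26 and -0.50, and none met the criterion. At the last of these, the α-Gal A(-/0) mice had 9.70, 9.66, 9.78 and 8.93, against 10.14, 10.11, 10.04 and 9.79 in wildtype mice, so that the groups did not overlap. Ano10, an anoctamin gene, had 0.27 and -0.25, and without α-Gal A(-/0) mouse 2 the first of these was 0.06.

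**Figure D3:**
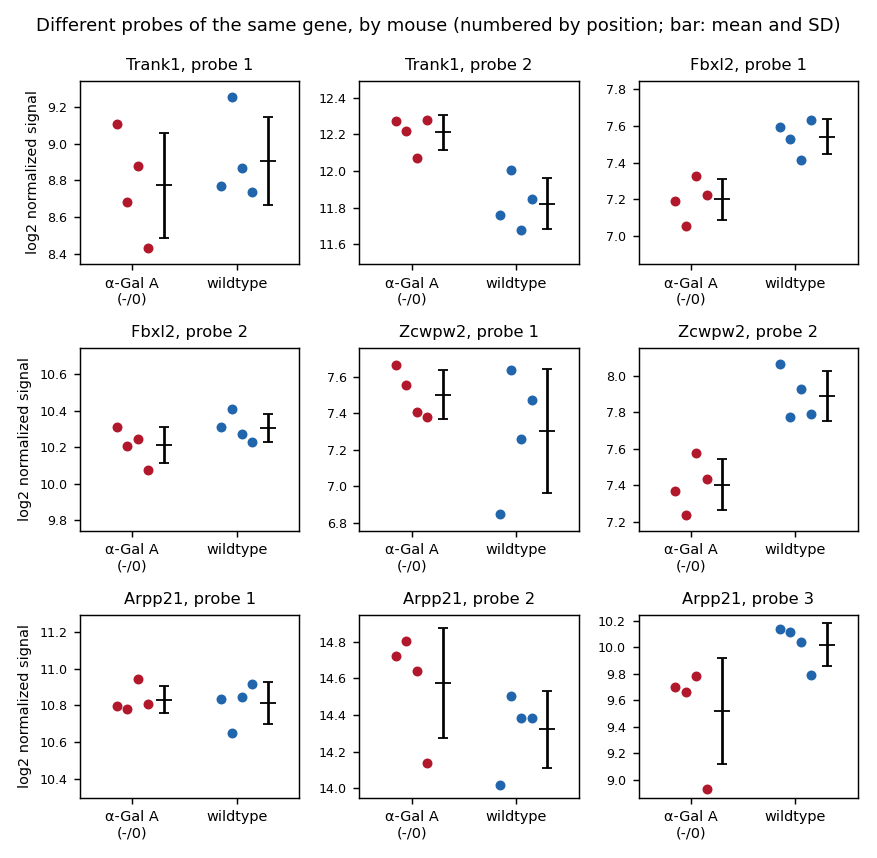
Log2 normalized signal by mouse (1 to 4 from left, with mean and SD) at each tested probe of Trank1, Fbxl2, Zcwpw2 and Arpp21, α-Gal A(-/0) in red and wildtype in blue. In Trank1, Fbxl2 and Zcwpw2 the genotypes separate at 1 probe and overlap at the other.

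By role, most lists of genes in the window held no criterion probe. The criterion was met by 1 of 7 lipid probes and 2 of 14 cortical neuron probes, beside 3.43% of all tested probes. These were Osbpl10, Trank1 and Gadl1, and the lists were chosen with earlier results of these data known. The lists' median log2 fold changes lay between -0.28 and 0.10, except 0.69 for the 2 sodium channel probes, beside -0.02 over all tested probes. Members with values given below had a limma adjusted p of 0.26 or more.

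Among receptors and signaling genes, Tgfbr2, the type II receptor of TGF-β, had log2 signals of 10.44, 10.51, 10.56 and 10.86 at its brighter probe in α-Gal A(-/0) mice, against 10.998, 10.75, 10.88 and 10.88 in wildtype mice. Its log2 fold changes were -0.28 ± 0.10 (SE) there and -0.30 ± 0.19 (SE) at the dimmer probe, with overlapping groups at both. Acvr2b, an activin type II receptor gene, had 0.07. Myd88, the adaptor gene of Toll-like receptors, had -0.17 ± 0.11 (SE), Csrnp1, an immediate-early gene, 0.20 ± 0.17 (SE), and Azi2, a TBK1-binding adaptor gene, 0.16 and -0.21 at its 2 probes. Of the chemokine receptor genes left in the window, Ackr2, a scavenging receptor, had -0.18, Ccrl2 had 0.08, and Xcr1 was well above background on no array. Among adhesion and Wnt genes, Ctnnb1, which encodes β-catenin, had -0.02 and Clec3b, which encodes tetranectin, had -0.61 ± 0.19 (SE), with 6.16, 6.58, 6.35 and 6.24 in α-Gal A(-/0) mice, against 6.75, 7.02, 6.56 and 7.44 in wildtype mice. The 2 groups of Clec3b overlapped by 1 value.

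In the lysosome and secretory list, 0 of 14 tested probes met the criterion or had an unadjusted p under 0.05, where 3.43% and 11.9% of all tested probes did. Glb1, which encodes lysosomal β-galactosidase, had 10.60, 10.50, 10.56 and 10.88 in α-Gal A(-/0) mice, against 10.48, 10.39, 10.60 and 10.52 in wildtype mice. The log2 fold change was 0.13 ± 0.09 (SE) and the groups overlapped. Golga4, a golgin gene, had -0.05, Gorasp1, a Golgi stacking gene, -0.04 and -0.07, and Sec22c, a vesicle transport gene, -0.29 ± 0.17 (SE). In the lipid list, the peroxisomal thiolase genes Acaa1a and Acaa1b had 0.00 and 0.16, Scap, the escort gene of SREBP, 0.00, and Plcd1, a phospholipase C gene, -0.15. None of 11 translation or 7 mitochondrial probes met the criterion, with the largest value, 0.67, at Lars2, which is on both lists and is described below. The ribosomal protein genes Rpsa and Rpl14 had -0.07 to 0.08 at 7 probes, Eif1b, an initiation factor gene, 0.01, and Higd1a, a respiratory chain assembly gene, -0.02 and 0.05.

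Of 14 tested probes on the list of neuropeptides and cortical neuron genes, 2 met the criterion (Trank1 and Gadl1), beside 3.43% over the array. An unadjusted p under 0.05 was found at 4 of the 14, beside 11.9% over the array. These were the same 2 and 1 probe each of Arpp21 and Stac. Cck, which encodes cholecystokinin, had 17.14, 17.12, 17.11 and 17.28 in α-Gal A(-/0) mice, against 17.36, 17.09, 17.30 and 17.26 in wildtype mice (-0.10 ± 0.08 SE). Cspg5, the neuroglycan C gene, was lower in every α-Gal A(-/0) mouse by a small step, with 14.59, 14.64, 14.61 and 14.66, against 14.73, 14.71, 14.71 and 14.76 in wildtype mice (-0.11 ± 0.05 SE). Vipr1, a receptor gene for vasoactive intestinal peptide, had -0.14 and 0.04. Stac, an adaptor gene of calcium channels, had 0.46 ± 0.19 (SE), with 8.32, 8.12, 8.40 and 7.52 in α-Gal A(-/0) mice, against 7.50, 7.80, 7.48 and 7.76 in wildtype mice, where α-Gal A(-/0) mouse 4 lay among the wildtype values. Transport genes such as Trak1 (0.04 and -0.10), Dclk3 (0.00) and Myrip (-0.14) differed little, and Ulk4, a kinase-like gene, had 0.19 and -0.31.

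Mobp, which encodes myelin-associated oligodendrocyte basic protein, had 0.17, 0.00 and 0.30 at its 3 probes. At the probe with 0.30 ± 0.10 (SE), α-Gal A(-/0) mice had 13.17, 13.04, 13.20 and 13.12, against 12.60, 13.03, 12.71 and 12.97 in wildtype mice, without overlap. Of the 6 oligodendrocyte markers, Mobp among them, all were well above background on all 8 arrays, none was at 0, and none was called, while 3 had an unadjusted p under 0.05. Their summed linear signal was 122077 to 126738 in α-Gal A(-/0) mice, against 116687 to 132162 in wildtype mice. In bulk tissue, fewer cells of a type and less RNA per cell cannot be told apart, and the part of cell composition in the Mobp values was not tested.

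Arpp21, at its brightest probe, and Eomes varied between mice together with markers of neighboring regions. At its brightest probe Arpp21 had 14.72, 14.80, 14.64 and 14.14 in α-Gal A(-/0) mice, against 14.02, 14.50, 14.38 and 14.39 in wildtype mice. Of 6 names on the striatum list 5 were on the array, all well above background on all 8 arrays, with a summed linear signal of 11808 to 38180 in α-Gal A(-/0) mice, against 9435 to 26713 in wildtype mice. Their mean log2 signal was lowest in wildtype mouse 1 (9.26) and α-Gal A(-/0) mouse 4 (9.59), and highest in α-Gal A(-/0) mouse 2 (11.36). Those first 2 mice had the lowest Arpp21 values at its brightest probe. At the third Arpp21 probe, described above, wildtype mouse 1 was instead the highest of all mice. Eomes, a T-box gene of olfactory bulb projection neurons, had 4.25, 5.71, 8.01 and 7.43 in α-Gal A(-/0) mice, against 7.64, 5.26, 5.13 and 6.91 in wildtype mice (0.12 ± 0.90 SE). Its spread within genotypes far exceeded the difference between them. Of the 4 olfactory bulb markers, Eomes and Tbx21 were not well above background on every array, while Cdhr1, at 1.74 (limma adjusted p = 0.024), and Doc2g, at 0.07, were. Cdhr1 and Doc2g together had a summed linear signal of 2978 to 5189 in α-Gal A(-/0) mice, against 1062 to 2698 in wildtype mice. Doc2g had 8.61, 8.60, 10.40 and 10.24 in α-Gal A(-/0) mice, against 10.25, 8.91, 8.63 and 9.77 in wildtype mice, high in the same 4 mice as Eomes. The part of tissue from other regions in these values was not tested.

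In several probes 1 mouse decided the mean. Scn10a, the sodium channel gene of pain-sensing neurons, had 5.70, 11.26, 5.81 and 5.31 in α-Gal A(-/0) mice, against 5.47, 5.46, 5.66 and 6.32 in wildtype mice. With all mice the log2 fold change was 1.29 ± 1.23 (SE), and without α-Gal A(-/0) mouse 2 it was -0.12 ± 0.23 (SE). The transcript AU023762 had 6.16, 10.74, 6.00 and 5.77 in α-Gal A(-/0) mice, against 5.45, 5.88, 5.72 and 5.77 in wildtype mice. Its 1.46 ± 1.02 (SE) became 0.27 ± 0.13 (SE) without that mouse. The unnamed probe A_55_P2061174, at 111.39 Mb, and the first Smarcc1 probe showed the same single high value, 8.82 and 8.83, with log2 fold changes of -0.05 and 0.17 without it. AU023762, A_55_P2061174, Eomes, Stac, Ano10, Ulk4, Clec3b, Tmem158, Dlec1, Sec22c, Acaa1b, Xcr1 and the untested probes described last were named after their values were seen.

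Scn11a, another channel gene of sensory neurons, had 7.92, 8.04, 7.98 and 7.63 in α-Gal A(-/0) mice, against 7.75, 7.93, 7.62 and 7.90 in wildtype mice (0.09 ± 0.11 SE). Lars2, which encodes the mitochondrial leucyl-tRNA synthetase, had 10.90, 10.77, 10.81 and 10.74 in α-Gal A(-/0) mice, against 10.09, 10.75, 10.74 and 8.98 in wildtype mice. The log2 fold change of 0.67 ± 0.36 (SE) was 0.28 ± 0.16 (SE) without wildtype mouse 4. Zfp445, a zinc finger gene of imprinting control, spanned 11.27 to 12.64 in α-Gal A(-/0) mice, against 11.60 to 12.85 in wildtype mice, with a log2 fold change of -0.05 ± 0.37 (SE).

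**Figure D4:**
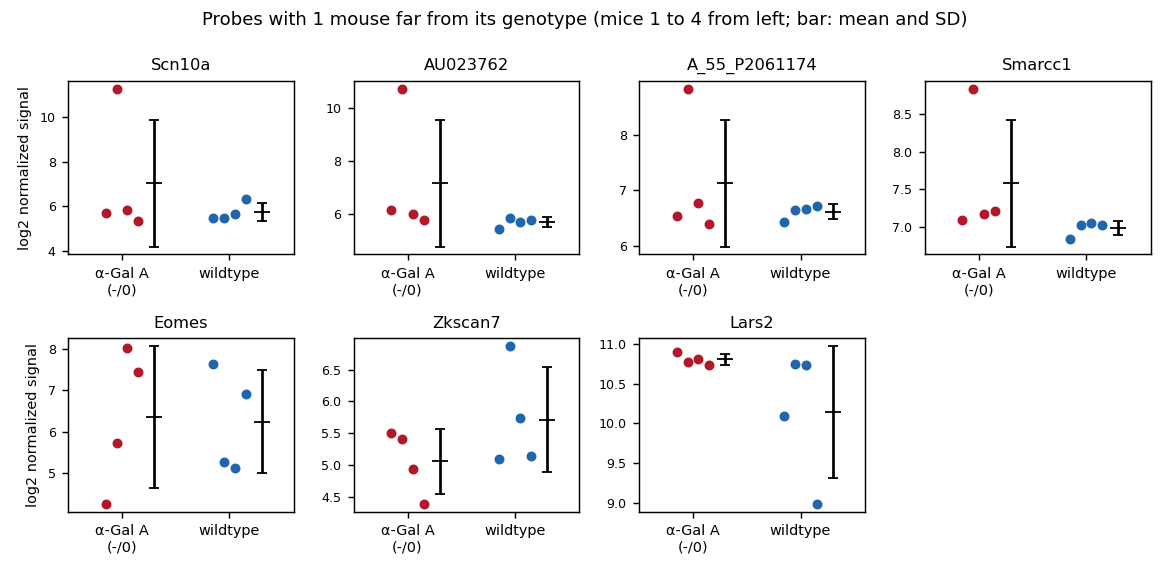
Log2 normalized signal by mouse (1 to 4 from left, with mean and SD) for 7 probes at which 1 mouse lay 1 log2 unit or more from the nearest other of its genotype, α-Gal A(-/0) in red and wildtype in blue. In Scn10a, AU023762, A_55_P2061174 and Smarcc1 the high value is that of α-Gal A(-/0) mouse 2.

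Beyond the last criterion probe, an intergenic stretch at 121.85 Mb, chosen after its values were seen, held neighboring probes of 1 sign. All 9 tested forward-strand probes of the intervals chr9:121846340-121848578 and chr9:121845920-121858120 and of 1700048O20Rik had a positive log2 fold change, from 0.21 to 0.60, over 8.68 kb. None met the criterion or passed the adjusted threshold (limma adjusted p of 0.27 to 0.64), 5 had an unadjusted p under 0.05, and the genotypes did not overlap at 2. At the probe with 0.60 ± 0.18 (SE), α-Gal A(-/0) mice had 7.23, 7.04, 7.89 and 7.06, against 6.66, 6.78, 6.84 and 6.55 in wildtype mice. Averaged over the 9 probes, the signal was 7.04, 6.89, 7.56 and 6.80 in α-Gal A(-/0) mice, against 6.56, 6.80, 6.75 and 6.48 in wildtype mice. α-Gal A(-/0) mouse 3 was the highest of all mice at 8 of the 9 and level with mouse 4 at the other (10.03 in both), and without it the log2 fold changes were 0.09 to 0.47 and 1 of the 9 met the criterion. With array weights 6 of the 9 met it, beside 4.92% of all tested probes. The 5 reverse-strand probes of the longer interval were not tested because they were too dim. Neighboring probes may report shared transcripts and were not counted as independent.

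**Figure D5:**
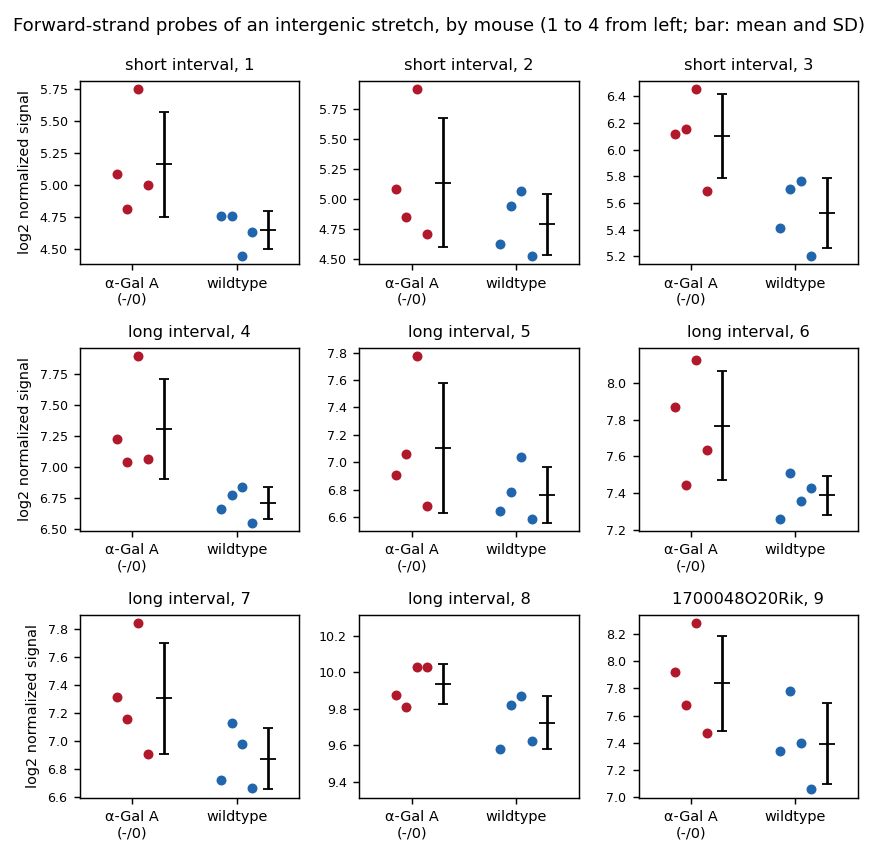
Log2 normalized signal by mouse (1 to 4 from left, with mean and SD) at the 9 tested forward-strand probes of the stretch at 121.85 Mb in position order, α-Gal A(-/0) in red and wildtype in blue. The short interval is chr9:121846340-121848578 and the long interval is chr9:121845920-121858120. α-Gal A(-/0) mouse 3 is the highest in 8 panels and level with mouse 4 in the other.

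Further members beyond 118.31 Mb had non-overlapping genotypes and small differences. Tmem158, a membrane protein gene induced by Ras, had 11.52, 11.58, 11.50 and 11.48 in α-Gal A(-/0) mice, against 11.16, 11.45, 11.29 and 11.29 in wildtype mice (0.22 ± 0.07 SE). Dlec1, a gene with a role in cilia, had 10.91, 10.96, 10.86 and 11.14 in α-Gal A(-/0) mice, against 10.80, 10.74, 10.77 and 10.74 in wildtype mice (0.21 ± 0.07 SE). Zfp105, a zinc finger gene, had 9.19, 9.07, 9.26 and 9.28 in α-Gal A(-/0) mice, against 9.46, 9.30, 9.43 and 9.36 in wildtype mice (-0.19 ± 0.07 SE). None of the 3 passed the adjusted threshold (limma adjusted p of 0.27 to 0.34).

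Of the 121 members that were not tested, 84 were well above background on no array. Bcl2a1c, a gene of the Bcl2a1 family whose near-identical copies can share signal, was well above background on 3 of 4 wildtype arrays and on no α-Gal A(-/0) array, with 2.10, 2.14, 3.02 and 3.15 in α-Gal A(-/0) mice, against 4.86, 3.81, 5.43 and 4.38 in wildtype mice. With α-Gal A(-/0) values raised to the lowest reliable signal of each array, it was 1.09-fold lower in α-Gal A(-/0) mice. Wildtype mouse 2, whose value was not well above background, was averaged as measured, so this is not a strict bound. Rtp3, a receptor transporter gene, was 1.07-fold lower by the same comparison, with the same limit. For Ltf, which encodes lactoferrin, and 1 of 2 Trim71 probes, detected in the same way, the comparison gave no fold.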

How the data were processed

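RNA of prefrontal cortex from 4 α-Gal A(-/0) and 4 wildtype mice had been hybridized by the authors to one-color Agilent whole mouse genome arrays, and the deposited intensity of each spot (processed signal of Feature Extraction 10.7.3.1, with spatial detrending and without local background subtraction, per the file headers) was the starting value. Precision is limited by the number of arrays. Log2 intensities of all spots were quantile normalized as in the study's methods, spots of a probe were averaged, and control probes and 81 probes with non-uniform spots were left out. Genotypes were compared with limma 3.58.1 in R 4.3.3 over 34339 probes, with Benjamini-Hochberg adjustment over all of them (called at 0.05); the fit was tested on simulated data. Separate animals are the replicates. The deposited series value table, whose columns do not follow their sample names, was not used. Alternatives are in the closing section.

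Probe names, mm9 positions and sequences came from the deposited files. Exon or UTR positions are not given, because no annotation of that build was used. Of 229 gene names, 152 matched RefSeq symbols (GRCm38, used for names only), 151 of them on chromosome 9; Rps27 matched another chromosome. Named genes were those called, the 10 largest past the criterion, the genes at the edges of the window, genes with 1 probe called and another not, Glb1, and the members past the criterion plus up to 4 of the brightest others of each role list, shown in part. The probes of 2 genes of the window, and results that need them, are not reported here. The window, lists and tests were chosen with earlier results of these data known. All 16 role lists were counted: sodium channels (0 of 2 probes past the criterion), TGF-β receptors (0 of 3), innate signaling (0 of 4), chemokine receptors (0 of 4), zinc finger genes (0 of 5), chromatin and repair (0 of 9), lipid metabolism (1 of 7), lysosome and secretion (0 of 14), translation (0 of 11), transport (0 of 14), cortical neurons (2 of 14), Wnt and adhesion (0 of 6), serine proteases (0 of 3), solute carriers (0 of 3), CMTM and myelin (0 of 7) and mitochondria (0 of 7).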

Additional observations from a re-analysis of the deposited data

Results flagged for a closer look

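Each named probe was checked for a mouse whose gap to the nearest other of its genotype, divided by the range of the 4 values, exceeded Dixon's 95% critical value. This held for 18 of 240 groups of 4, and chance alone gives about 1 in 20. Some of these probes were named after their values were seen, which raises the count. Over all tested members it held for 29 of 496 groups. α-Gal A(-/0) mouse 2 was high at Scn10a (0.917), AU023762 (0.920), A_55_P2061174 (0.840) and the first Smarcc1 probe (0.936), by 1.61 to 5.46 log2 units over the next mouse. It was low at Eif1b (0.900) and at the interval chr9:118060025-118085050 (0.879), and it had the fewest probes well above background, 29943 against 35218 to 36139 in the other α-Gal A(-/0) mice (0.851). α-Gal A(-/0) mouse 4 was low at the third Arpp21 probe (0.857), Gorasp1 (0.897) and Rpl14 (0.865) and high at Cmtm7 (0.935) and Rpsa (0.838). α-Gal A(-/0) mouse 1 was low at ENSMUST00000111769 (0.861) and high at Ackr2 (0.843), and mouse 3 was high at Zfp651 (0.847). Wildtype mouse 1 was low at the first Smarcc1 probe (0.854). Wildtype mouse 2 was high at Ctdspl (0.856) and Cmtm7 (0.877) and low at Eif1b (0.890). The causes were not tested.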

How the results depend on the processing

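At the 10 criterion probes the genotypes did not overlap, which nearly fixes their direction across settings in advance. They kept it in all 18 alternative settings, and 8 to 10 of them met the criterion again. Leaving out saturated probes, 1 of the 18, repeats the main fit because no tested probe was saturated, so it could not differ. The number of members past the criterion was 10 to 15 in every setting except array weights, which gave 19. With array weights this was 7.66% of tested members, beside 4.92% of all tested probes. With 1 array left out, 10 to 15 members met the criterion, at most 6.05% of those tested, beside 4.11% over the array in that fit. The number called was then 0 to 2, among them Bcl2a1c without wildtype mouse 2 and Ltf without wildtype mouse 3. The number called was 2 with array weights, 6 with an intensity trend and robust variances, 3 with normexp background correction, 2 when probes had to be well above background on all arrays, and 0 without a filter on signal and with the methods' Welch test. Over all probes, calls numbered 493, 424, 397, 265, 223 and 92 in those settings, beside 301. The call of 2210411A11Rik was lost in 10 of 18 settings (limma adjusted p of 0.008 to 0.11, and 0.22 with the Welch test), with log2 fold changes of -0.80 to -0.51. Of 2148 single-probe values, 2121 kept their side of the threshold or stayed within 1 SD. This count is a weak check, because several settings leave a log2 fold change as it was. Leaving out 1 mouse also rarely moves a mean by 1 SD, and even Scn10a without α-Gal A(-/0) mouse 2 counts as kept. With the replicate number as a block, 1 member (Gadl1) and 150 probes in all were called. The criterion was then met by 13 members (5.24%, beside 3.54% over the array). Deviations of same-numbered mice from their group means had correlations of -0.09, 0.14, 0.01 and 0.15 over probes. These were weak and of mixed sign, and the numbers were not taken to pair the mice. With the slide row as a block, 144 probes in all were called, 2210411A11Rik among them. The criterion was then met by 11 members (4.44%, beside 2.58% over the array). A criterion probe lay in 5 of 7 bins of 2 Mb, and in 5 of 14 bins of 1 Mb, both with all probes and with 1 probe per gene. Dim probes limit the map, since 121 of 369 members could not be tested.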
